A study of Mus musculus with 20 samples.

Results

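Fatty acid oxidation was followed through 42 genes, chosen by name among the 54532 genes of a mouse RNA-seq count table. They encode the enzymes, carriers and regulators of mitochondrial and peroxisomal beta-oxidation, with a mitochondrial enzyme of ketone bodies, and all 42 were found once in the table. By where the proteins are known to act, 22 were taken as mitochondrial, 12 as peroxisomal and 6 as present in both or several compartments, and 2 are transcriptional regulators. The table compares 10 renal tumors with 10 normal kidneys of the Cre-less AAV model. In this model adeno-associated virus carrying guides against Vhl, Pbrm1, Keap1 and Tsc1 was injected into the kidney of LSL-Cas9/+; Pax8 Cre/+ mice on a C57BL/6J background, so that Cas9 was made in cells that express Pax8, the renal tubule epithelium. By the study's methods all 20 samples came from 10 mice of this model, so the normal kidneys shared both the animals and the Cas9 and Cre alleles of the tumors. The mice were young adults of either sex when injected, and their age at collection is not given in the sources used here. The tissue was bulk tissue, in which fewer cells of a type and less RNA per cell cannot be told apart.

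Beta-oxidation shortens a fatty acid by repeated rounds of dehydrogenation, hydration, a second dehydrogenation and thiolytic cleavage. In mitochondria the acyl group enters through the carnitine shuttle, flavin-linked dehydrogenases make the first double bond, and their electrons pass through the electron transfer flavoprotein to the respiratory chain. Peroxisomes use acyl-CoA oxidases for the first step and handle very long, branched and other poorly oxidised chains, and they export shortened acyl groups as carnitine esters. The proximal tubule of the kidney draws most of its ATP from fatty acids, and the nuclear receptor PPAR-alpha, encoded by Ppara, with its coactivator, encoded by Ppargc1a, is the best known activator of these genes.

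The libraries held 14737516 to 26679704 counts in normal kidneys and 18447394 to 24902973 in tumors. Of the 42 members, 41 passed the filter on low counts. Genes of the mitochondrial genome took 7.12% to 12.2% of the counts of normal kidneys and 2.09% to 4.93% of those of tumors. Of the targeted genes, Vhl and Tsc1 fell (log2 fold change -0.49 and -0.61), Keap1 rose (0.83) and Pbrm1 did not pass (-0.28), though counts over a whole gene do not read an edit. Levels are given as CPM, counts scaled for library size by normalization factors. Markers of the loop of Henle, 5 genes, summed to 3622 to 8936 CPM in normal kidneys and 184 to 394 CPM in tumors, and 4 of them fell and 1 rose. Most of the tumor sums was Bst1, which rose, with 169 to 342 CPM in tumors, whereas Umod had 0 to 5.46 CPM there. The 12 genes of the distal tubule and collecting duct summed to 658 to 3061 CPM in kidneys and 1.34 to 30.1 CPM in tumors, and all 10 that were tested fell. The 20 proximal tubule markers spanned 5900 to 25421 CPM in normal kidneys and 2609 to 23406 CPM in tumors; of the 19 tested, 8 were lower in tumors, 1 was higher and 10 did not pass, and Slc22a7, an organic anion transporter, had no count in any tumor. Tumor 7 was the tumor with the lowest sum of proximal tubule markers and the highest sums of macrophage, fibroblast and adipocyte markers (2284, 7905 and 973 CPM, against at most 1021, 587 and 445 CPM in the other 9 tumors). Normal kidneys 5, 7 and 8 had the highest sums of tubule injury genes, 28346 to 49788 CPM for 7 genes against 2112 to 4229 CPM in the other 7 kidneys, and their proximal tubule markers (5900 to 10471 CPM) lay below those of the other 7 (18089 to 25421 CPM). Most of the injury sums was Spp1, with 26231 to 44332 CPM in these kidneys. Havcr1, Lcn2, Krt20 and Sox9 were also above the other 7 in each of them, but Vcam1 was not, nor was Vim in kidneys 5 and 8. Normal kidney 9 had a normalization factor of 0.749, the lowest of the 20. Their part in the results for the members was not tested, except where a value without a library is given.

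The reading frames of Acaa1a and Acaa1b, which encode the peroxisomal thiolases, are shown because their counts are reported as separate members. In the GENCODE M21 transcripts (GRCm38) the frames had 1275 bases each and were identical at 1231 of them, or 96.5%. Their first 120 bases are given 5′ to 3′, with the 4 bases that differ in capitals.
Acaa1a: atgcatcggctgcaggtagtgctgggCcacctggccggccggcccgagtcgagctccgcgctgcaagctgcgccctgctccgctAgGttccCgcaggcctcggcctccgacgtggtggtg
Acaa1b: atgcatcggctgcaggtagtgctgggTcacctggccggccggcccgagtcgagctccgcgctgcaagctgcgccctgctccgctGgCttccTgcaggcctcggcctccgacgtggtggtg
Of all stretches of 100 bases in the longest coding transcript, 21.6% of those in Acaa1a and 22.6% of those in Acaa1b also occur in the other gene. Reads within such stretches cannot be assigned by sequence, and how they were counted is not given in the sources used here. Eci2 and Eci3 shared 1.34% and 1.76% of such stretches. Hadhb shared 52.8% with the pseudogenes Gm13910 and Gm9108, Scp2 32.2% with Scp2-ps2, Etfb 65.2% with Gm45233, Cpt1b 91.1% with Gm44502 and Acad11 2.0% with Gm28305. The other 33 members shared none. Gm45233 was listed with 0 to 5 counts and Gm44502 and Gm28305 with none, whereas Gm13910 had 878 to 2094 counts and itself fell in tumors (log2 fold change -0.49, adjusted p = 0.0204), as did Scp2-ps2, with 232 to 1092 counts (-0.69, adjusted p = 0.0107), so the counts of Hadhb, Scp2, Etfb and Cpt1b carry an uncertainty that the number of libraries does not cover.

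Fatty acid oxidation genes were mostly lower in tumors. Of the 41 members tested, 27 fell (65.9%), 1 rose and 13 did not pass an adjusted p of 0.05 by edgeR's quasi-likelihood test, and the median log2 fold change was -0.75. Over all 15354 genes tested, 23.8% fell and 23.6% rose at that threshold, and the median was -0.02. With library totals or upper quartile factors in place of normalization factors this median shifted to -0.14, and 38.5% or 39.2% of all calls were rises, against 49.8%. By a log2 fold change beyond 1 with an unadjusted p below 0.001, 13 members fell and none rose, against 10.2% and 8.85% of all genes. Every tumor lay below every normal kidney for 3 members, Etfa, Acaa2 and Acaa1b, and for 4.74% of all genes. No member had every tumor above every kidney, which 5.87% of all genes did.

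Mitochondrial members fell at 15 of 21 tested (71.4%) and peroxisomal members at 8 of 12 (66.7%), and no member of either compartment rose. Their median log2 fold changes were -0.70 and -0.97. When the log2 CPM of each gene was taken relative to its mean in the 10 normal kidneys and averaged over the members of a compartment, the tumors reached -0.83 ± 0.26 (SD, n = 10) for the mitochondrial genes, with a range of -1.19 to -0.32. They reached -0.96 ± 0.42 for the peroxisomal genes, with a range of -1.56 to -0.17. The compartments therefore overlapped in their size of change. The difference between them was not tested, because the members were chosen with results of these data known. The spread within the compartments was wide: mitochondrial genes lay between -4.67 and -0.20, and peroxisomal genes between -2.86 and 0.62.

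**Figure D1:**
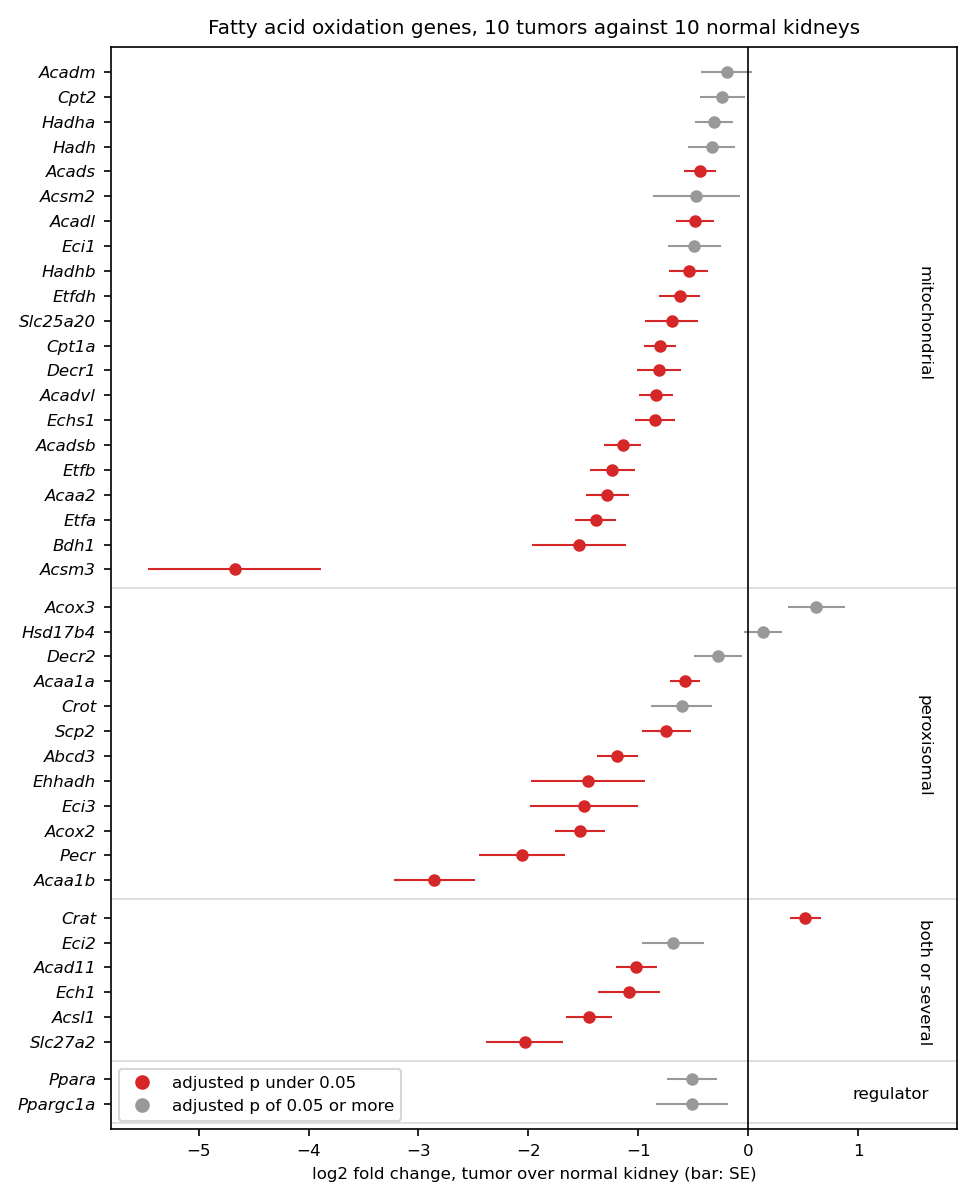
Log2 fold change of tumors over normal kidneys (x axis) for the 41 members tested, by compartment, with the standard error as bar; red points passed an adjusted p of 0.05. Only Crat is red to the right of 0, Acsm3 lies far to the left at -4.67, and grey points are spread over both compartments.

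Of the genes of the carnitine shuttle, that of the first step and that of the carrier fell. Cpt1a, the liver-type carnitine palmitoyltransferase that commits acyl groups to oxidation, had 426, 527 and 781 CPM as lowest, median and highest value in normal kidneys and 271, 326 and 486 CPM in tumors. Of the tumors, 9 lay below every kidney, and Cpt1a fell 1.74-fold (log2 fold change -0.80 ± 0.15 (SE), adjusted p = 0.000114). Slc25a20, the carrier that moves acylcarnitine across the inner membrane, fell 1.62-fold (-0.70 ± 0.24, adjusted p = 0.0218), from 51.0 to 198 CPM in kidneys to 43.8 to 106 CPM in tumors, so the groups overlapped. Without normal kidneys 5, 7 and 8 its adjusted p was 0.111, and with same-numbered tumors and kidneys as a block it was 0.00497 (log2 fold change -0.63). Cpt2, which frees the acyl-CoA inside, had medians of 177 CPM in kidneys and 185 CPM in tumors and did not pass (-0.23 ± 0.21, adjusted p = 0.365). Cpt1b, the muscle-type enzyme, had 2 to 14 counts in the kidneys and 0 to 9 in the tumors, of which 4 had none, and it was removed by the filter. Since it shares 91.1% of its stretches of 100 bases with Gm44502, reads may have been left uncounted. These counts therefore do not show that its RNA was scarce. In a fit without the filter Cpt1b had a log2 fold change of -1.85 and an adjusted p of 0.0238, a value that rests on these few counts.

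Among the acyl-CoA dehydrogenases, which make the first double bond, the sizes differed from enzyme to enzyme. Acadvl, for very long chains, fell 1.79-fold (-0.84 ± 0.16, adjusted p = 0.000149), with 152 to 318 CPM in kidneys and 85.5 to 182 CPM in tumors, 8 of them below every kidney. Acadsb, for short branched chains of amino acid origin, fell 2.21-fold (-1.14 ± 0.17, adjusted p = 1.22e-05), from a median of 150 to 59.4 CPM. Acadl and Acads, for long and short chains, fell by less, 1.4-fold (adjusted p = 0.027) and 1.36-fold (adjusted p = 0.0146). The call of Acadl was lost without normal kidney 8 (adjusted p = 0.0536), without tumor 4 (0.0515) and without normal kidneys 5, 7 and 8 (0.185). With same-numbered tumors and kidneys as a block Acadl passed (-0.45, adjusted p = 0.00284). Acadm, the medium-chain enzyme, had medians of 514 CPM in kidneys and 539 CPM in tumors and did not pass (-0.20 ± 0.23, adjusted p = 0.514). Acad11, which is placed in both mitochondria and peroxisomes and acts on very long chains, fell 2.03-fold (-1.02 ± 0.19, adjusted p = 0.000122).

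The electron transfer flavoprotein and its oxidoreductase, which take the electrons of all these dehydrogenases, all fell. Etfa, its alpha subunit, had 174 CPM in the lowest and 624 CPM in the highest normal kidney (median 285 CPM) and 85.4 to 146 CPM in the tumors (median 113 CPM). The groups were fully separated, and Etfa fell 2.62-fold (-1.39 ± 0.19, adjusted p = 3.3e-06). Etfb, the beta subunit, fell 2.36-fold (-1.24 ± 0.21, adjusted p = 4.75e-05), with 9 of 10 tumors below every kidney. Etfdh, which hands the electrons to ubiquinone, fell 1.54-fold (-0.62 ± 0.19, adjusted p = 0.00969). Its adjusted p was 0.0559 without normal kidneys 5, 7 and 8, and 0.000993 with same-numbered tumors and kidneys as a block (-0.68).

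The later steps of the mitochondrial spiral were uneven. Acaa2, the matrix thiolase, fell 2.43-fold with fully separated groups (-1.28 ± 0.20, adjusted p = 1.49e-05), from 251 to 712 CPM in kidneys to 98.2 to 220 CPM in tumors. Echs1, the short-chain hydratase, fell 1.8-fold (-0.85 ± 0.18, adjusted p = 0.000531). The trifunctional protein is a complex of 2 gene products made from neighbouring genes on chromosome 5. Its beta subunit gene Hadhb fell 1.46-fold (-0.54 ± 0.18, adjusted p = 0.0169), whereas its alpha subunit gene Hadha had -0.31 ± 0.17 and did not pass (adjusted p = 0.146); the difference between the subunits was not tested. Hadha passed without tumor 5 (-0.45, adjusted p = 0.0172) and with same-numbered tumors and kidneys as a block (-0.34, adjusted p = 0.0283). Hadh, the short-chain hydroxyacyl-CoA dehydrogenase, had -0.33 ± 0.21 (adjusted p = 0.209) and passed with library totals (-0.45, adjusted p = 0.0436). Of the isomerase and reductase needed for unsaturated chains, Decr1 fell 1.76-fold (-0.81 ± 0.20, adjusted p = 0.00232) and Eci1 had -0.49 ± 0.24 (adjusted p = 0.0965). Eci1 passed without tumor 5 (-0.61, adjusted p = 0.0386), with library totals (adjusted p = 0.0162) and with upper quartile factors (adjusted p = 0.0325).

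The medium-chain acyl-CoA synthetases and the ketone body enzyme varied widely between kidneys. Acsm3 fell 25.5-fold (-4.67 ± 0.79, adjusted p = 4.81e-05), from 2.28, 12.6 and 126 CPM as lowest, median and highest kidney to 0.513, 0.664 and 3.59 CPM in tumors. The kidneys themselves split into separate levels: normal kidneys 1, 7, 8, 9 and 10, in which the Y-linked Ddx3y had more counts than Xist, held 4.26 to 6.98 log2 CPM of Acsm3, and the other 5, with Xist, held 1.25 to 2.63. Of the 41 members, 1 was split in this way between those kidneys, where 0.658% of all genes lay above and 0.716% below, and none was in the tumors, of which numbers 1, 7, 8, 9 and 10 again had more Ddx3y than Xist. With a term for these libraries the log2 fold change of Acsm3 was -3.83, and 27 members fell, as without it. In that fit 3700 of 15354 genes fell. Acsm2, the neighbouring synthetase gene, had 227 to 1798 CPM in kidneys and 129 to 1324 CPM in tumors and did not pass (-0.47 ± 0.40, adjusted p = 0.343). Bdh1, the mitochondrial dehydrogenase that interconverts ketone bodies, fell 2.91-fold (-1.54 ± 0.43, adjusted p = 0.00531), but no tumor lay below every kidney.

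**Figure D2:**
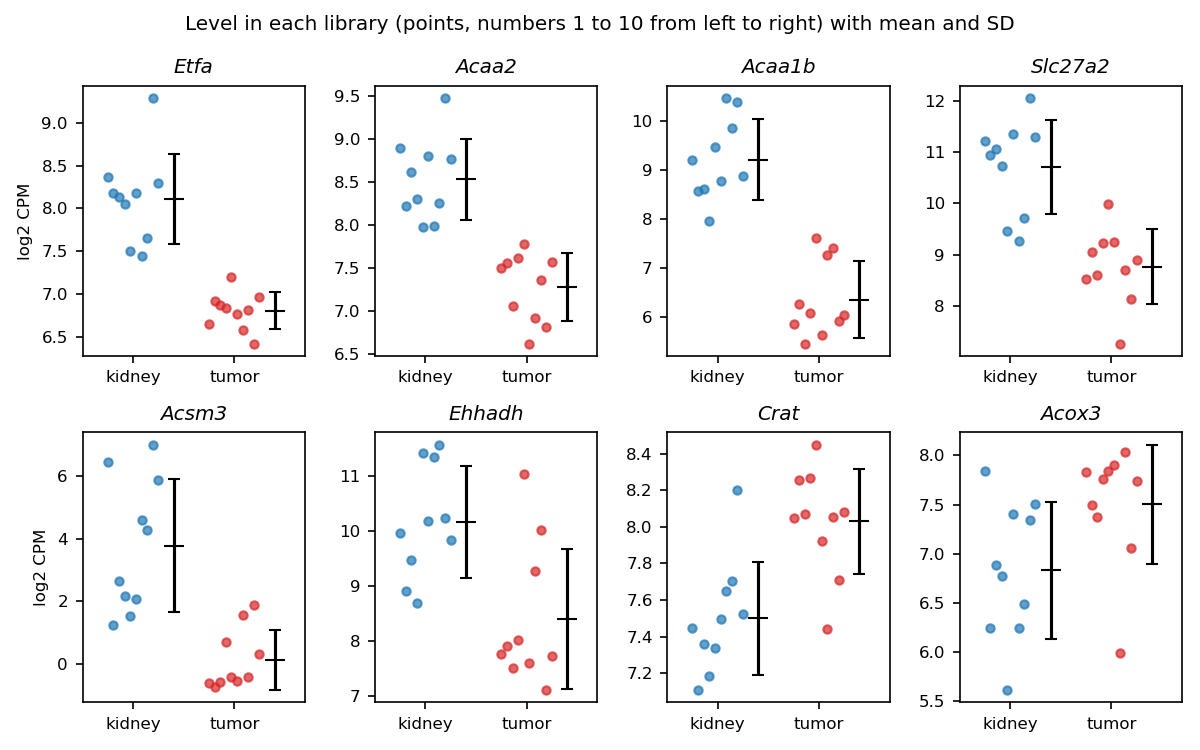
Log2 CPM (y axes) in each of 10 normal kidneys (blue) and 10 tumors (red) for 8 members, with mean and SD in black. Etfa, Acaa2 and Acaa1b show no overlap, Acsm3 and Ehhadh spread over several log2 units within a group, and Crat and Acox3 lie higher in most tumors with tumor 7 lowest among the tumors.

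Peroxisomal genes changed unevenly. Acaa1b, a peroxisomal thiolase, had the largest fall of the compartment, 7.24-fold (-2.86 ± 0.37, adjusted p = 1.79e-06), from 249, 526 and 1403 CPM as lowest, median and highest kidney to 44.2, 67.0 and 197 CPM in tumors. Its copy Acaa1a fell 1.49-fold (-0.58 ± 0.14, adjusted p = 0.00175). Pecr, the trans-2-enoyl-CoA reductase used in chain elongation, fell 4.16-fold (-2.06 ± 0.39, adjusted p = 0.000184), and Eci3, a peroxisomal isomerase, fell 2.82-fold (-1.49 ± 0.49, adjusted p = 0.0164); with same-numbered libraries as a block Eci3 did not pass (-1.04, adjusted p = 0.0644). Acox2, the oxidase of branched chains and bile acid intermediates, fell 2.89-fold (-1.53 ± 0.23, adjusted p = 1.19e-05), from a median of 90.0 CPM to 31.1 CPM. Acox3, the other branched-chain oxidase among the members, moved the other way, from a median of 114 CPM to 215 CPM, and missed the threshold (0.62 ± 0.26, adjusted p = 0.0562); without tumor 7 it passed (0.72, adjusted p = 0.0134), as it did without any of normal kidneys 1, 6, 9 and 10 or tumor 9 and with the block (0.66, adjusted p = 0.036).

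The bifunctional enzymes, which carry out the hydration and second dehydrogenation in peroxisomes, also parted. Ehhadh, which serves straight chains and dicarboxylic acids, fell 2.75-fold (-1.46 ± 0.52, adjusted p = 0.0261), from 413 to 3019 CPM in kidneys to 137 to 2082 CPM in tumors. This call depended on the libraries and the fit. The log2 fold change was -2.05 without tumor 5 (adjusted p = 0.0011). The adjusted p was 0.0538 without normal kidney 8, and 0.279 without normal kidneys 5, 7 and 8 but with tumors 5, 7 and 8 kept. With same-numbered libraries as a block the log2 fold change was -1.77 (adjusted p = 0.00015). Hsd17b4, which serves branched chains and bile acid intermediates, had medians of 304 CPM in kidneys and 348 CPM in tumors (0.13 ± 0.17, adjusted p = 0.555), and its sign turned with library totals in place of normalization factors (-0.011), whereas it passed by limma-voom (0.29, adjusted p = 0.0229). Scp2, which contains a thiolase and a sterol carrier, fell 1.68-fold (-0.75 ± 0.22, adjusted p = 0.00874). Abcd3, the membrane transporter that brings long and branched acyl-CoA into the peroxisome, fell 2.28-fold (-1.19 ± 0.19, adjusted p = 2e-05), with 9 tumors below every kidney. Decr2, the peroxisomal reductase for unsaturated chains, had -0.27 ± 0.22 (adjusted p = 0.31) and passed without tumor 5 (-0.46, adjusted p = 0.0436).

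The carnitine acyltransferases that export shortened chains were opposite in sign. Crat, which acts on acetyl groups and very short chains, was the only member that rose: 1.44-fold (0.52 ± 0.14, adjusted p = 0.0042), from 138, 178 and 295 CPM in kidneys to 174, 267 and 349 CPM in tumors, with 3 tumors above every kidney. Crot, for medium chains, had -0.60 ± 0.28 and did not pass (adjusted p = 0.0782), but passed with the block (-0.53, adjusted p = 0.0094) and without tumor 5 or tumor 8 (adjusted p = 0.0285 and 0.0452). Genes of both or several compartments otherwise fell: Slc27a2, a very long-chain acyl-CoA synthetase and fatty acid transporter, 4.09-fold (-2.03 ± 0.35, adjusted p = 6.24e-05), Acsl1, the main long-chain synthetase, 2.73-fold (-1.45 ± 0.21, adjusted p = 7.91e-06), and Ech1, a dienoyl-CoA isomerase, 2.12-fold (-1.09 ± 0.28, adjusted p = 0.00307). Normal kidney 9 carried much of the value of Ech1, which was -0.71 without it (adjusted p = 0.00101). Eci2, an isomerase, had -0.69 ± 0.28 (adjusted p = 0.0518) and passed without tumor 5 or tumor 8 (adjusted p = 0.0182 and 0.0292) or without any of normal kidneys 2, 3, 4 and 6, and with the block (-0.59, adjusted p = 0.0235).

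Neither regulator passed in the edgeR comparison of all 20 libraries with TMM factors and no block. Ppara had 33.9, 69.2 and 105 CPM as lowest, median and highest kidney and 26.1, 45.7 and 86.8 CPM in tumors (-0.51 ± 0.23, adjusted p = 0.0699). It passed without tumor 5 (-0.65, adjusted p = 0.0182), without tumor 8 and without normal kidney 5 or 9. Ppara also passed by limma-voom (-0.75, adjusted p = 0.000388) and by DESeq2 (-0.53, adjusted p = 0.0458), which made a larger share of false calls than edgeR on simulated counts. In edgeR it passed with library totals (adjusted p = 0.0219) and upper quartile factors (adjusted p = 0.0225), but not with the block (-0.55, adjusted p = 0.0557). Ppargc1a had 28.2, 102 and 137 CPM in kidneys and 9.26, 62.9 and 89.4 CPM in tumors (-0.51 ± 0.33, adjusted p = 0.207). With the block Ppargc1a passed (-0.54, adjusted p = 0.0113), as it did by limma-voom (-0.63, adjusted p = 0.00303).

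**Figure D3:**
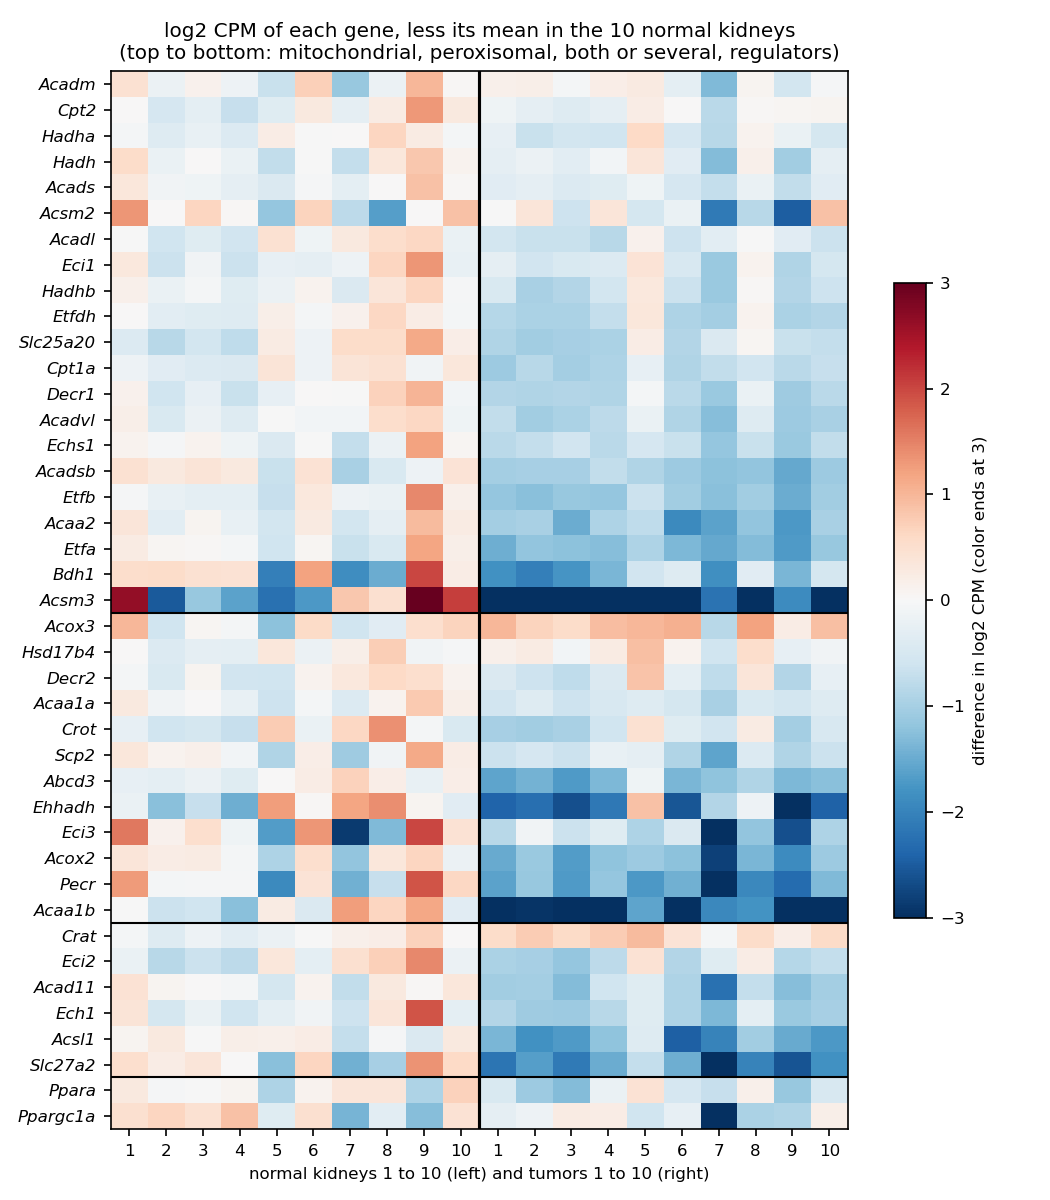
Log2 CPM of each of the 41 members (rows) in 10 normal kidneys (left) and 10 tumors (right), less the gene's mean in the kidneys; red is higher, blue lower, and the color ends at a difference of 3. Most squares of the tumors are blue except in the rows of Crat, Acox3 and Hsd17b4 and in the mixed rows of Acadm and Cpt2. Tumor 5 is the palest tumor and tumor 7 the darkest, and kidney 9 is the reddest kidney.

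Levels were compared between genes per kilobase of gene length, as CPM per kb. This length differed unevenly from that of the longest coding transcript. It was 3913 against 2047 bases for Acadm, 2284 against 1267 for Ech1, and 2981 in both for Ehhadh. The order therefore depends on the length used, and an order by transcript length was not made. In normal kidneys the highest means were those of Slc27a2 (527 ± 293 CPM per kb, SD, n = 10), Ehhadh (476 ± 327), Acaa1b (349 ± 206), Acaa2 (257 ± 92.2) and Ech1 (239 ± 186). Neighbours in this order differed by less than the larger SD of the pair. In tumors the order opened with Ehhadh (173 ± 207 CPM per kb), Acadl (136 ± 31.6), Acadm (129 ± 34.2), Slc27a2 (129 ± 62.4), Ech1 (113 ± 27.8), Scp2 (106 ± 25.4), Acaa2 (106 ± 27.2) and Hsd17b4 (105 ± 32.0), each neighbour again within the larger SD of its pair. At the low end were Acsm3 (6.74 ± 8.71 CPM per kb in kidneys and 0.258 ± 0.221 in tumors) and Cpt1b (0.136 ± 0.0594 and 0.0365 ± 0.047). The place of Cpt1b is uncertain, because most of its sequence is shared with Gm44502.

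Ratios of related genes within a library do not depend on how libraries are scaled, and 8 pairs were compared by two-sided permutation tests with adjustment over the 8. They were taken per kb of the gene length in the table, which sets their level but not the shift between groups. The pairs were chosen with results of these data known and reuse the member levels given above, so their p-values add no separate support. The ratio Acox3:Acox2 was higher in every tumor than in every kidney (log2 ratio -1.07 ± 0.55 and 1.11 ± 0.25, a 4.52-fold shift, adjusted p = 8e-05). Its raw p of 1e-05 is the smallest that 100000 resamples can give. Acaa1a:Acaa1b shifted 4.96-fold, from -3.05 ± 0.83 to -0.74 ± 0.82 (adjusted p = 8e-05), and 9 tumors lay above every kidney. Ehhadh:Hsd17b4 shifted 3.68-fold the other way, from 2.03 ± 0.73 to 0.15 ± 1.09 (adjusted p = 0.0015), as did Crot:Crat, 2.09-fold, from 0.68 ± 0.64 to -0.38 ± 0.52 (adjusted p = 0.0015); in both pairs 7 tumors lay below every kidney. Decr2:Decr1, a peroxisomal gene over its mitochondrial counterpart, rose 1.36-fold (adjusted p = 0.00179), and Acadl:Acadvl rose 1.3-fold (adjusted p = 0.00495). Cpt1a:Cpt1b rose by 1.55 on the log2 scale (adjusted p = 0.0201), but with 2 counts in place of 0.5 added to each gene the rise was 0.71 and its adjusted p 0.0943. Eci2:Eci3 had -0.27 ± 1.79 in kidneys and 0.26 ± 1.24 in tumors (adjusted p = 0.451), a spread too wide to show a difference of this size.

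**Figure D4:**
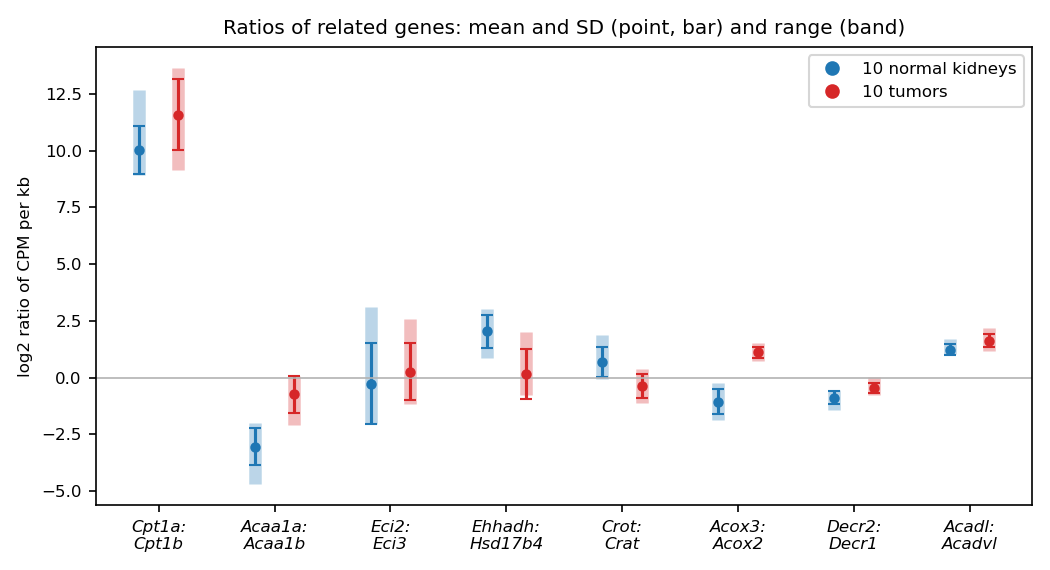
Log2 ratio of CPM per kb (y axis) for 8 pairs of related genes in 10 normal kidneys (blue) and 10 tumors (red); points and bars are mean and SD, bands the range. The bands of Acox3:Acox2 do not touch, those of Acaa1a:Acaa1b meet only at their ends, and those of Eci2:Eci3 overlap almost fully.

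The same libraries were highest or lowest for many members. Tumor 5 was the highest tumor for 29 of 41 members and tumor 7 the lowest for 22, whereas tumor 5 was the highest for 14.1% and tumor 7 the lowest for 30.0% of all genes tested. Normal kidney 9 was the highest kidney for 25 members and for 30.2% of all genes. Ehhadh had the largest SD of log2 CPM among the tumors (1.27): in kidneys 1 to 10, in order, it had 991, 479, 705, 413, 2707, 1159, 2591, 3019, 1206 and 905 CPM, and in tumors 1 to 10 it had 217, 238, 182, 257, 2082, 193, 617, 1028, 137 and 212 CPM. Numbers 5, 7 and 8 were the highest in both tissues. Whether equal numbers stand for 1 of the 10 mice is not stated. Pdk4, which restrains glucose oxidation and is a known PPAR-alpha target, was named after its values were seen: it had 2628, 762 and 1196 CPM in kidneys 5, 7 and 8 against 26.3 to 573 CPM in the other kidneys, and 2855, 1135 and 1292 CPM in tumors 5, 7 and 8 against 35.8 to 1024 CPM in the others. Of the 16 genes listed as other PPAR-alpha targets, it was the only one for which these numbers lay above the rest in both tissues. In kidneys they lay above for 3 of the 16 and below for 1, and in tumors above for 2. Of all genes, 11.3% lay above and 12.7% below in kidneys, and 5.45% above in tumors.

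Normal kidneys 5, 7 and 8, set apart by their injury genes, lay outside the range of the other 7 kidneys for members in both directions. They lay above for 4 of 41 members, Ehhadh, Crot, Cpt1a and Hsd17b4, a share near the 11.3% of all genes. They lay below for 10 members, Acadm, Acadsb, Echs1, Etfa, Acsm2, Bdh1, Slc27a2, Scp2, Pecr and Eci3, against 12.7% of all genes. The largest differences in mean log2 CPM were 1.83 for Ehhadh and 1.32 for Crot upward and -2.79 for Eci3 and -2.57 for Bdh1 downward. Bdh1 had 16.9, 19.3 and 24.8 CPM in these kidneys against 82.5 to 282 CPM in the other 7 and 17.0 to 55.6 CPM in the tumors, so these kidneys lay within the range of the tumors or at its lower edge. In tumors 5, 7 and 8, 6 members lay above the other 7 tumors (Acadl, Eci2, Slc25a20, Acaa1b, Ehhadh and Abcd3), against 5.45% of all genes, and none below, against 7.45%. Without normal kidneys 5, 7 and 8, 23 members fell and 1 rose, with median log2 fold changes of -0.60 for mitochondrial and -0.83 for peroxisomal members. In that fit 4038 of 15834 genes fell and 4207 rose.

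**Figure D5:**
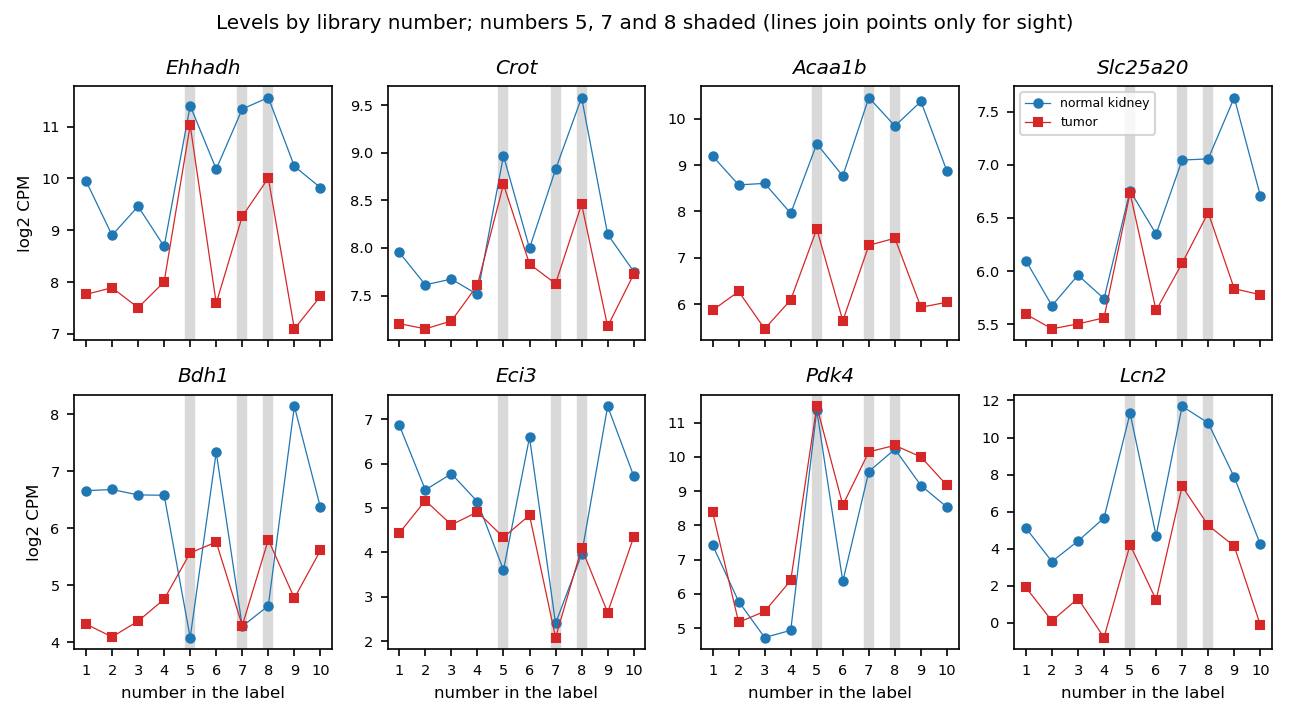
Log2 CPM (y axes) by the number in the label (x axes) in normal kidneys (blue) and tumors (red) for 6 members, the PPAR-alpha target Pdk4 and the injury gene Lcn2; numbers 5, 7 and 8 are shaded. Ehhadh, Crot, Acaa1b, Slc25a20 and Pdk4 have their highest tumor at number 5, while Bdh1 and Eci3 are lowest at the shaded numbers in the kidneys.

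Genes listed around the pathway, beyond the members, moved in both directions. Beside the counts of these lists, 23.8% of all genes tested fell and 23.6% rose. Of 23 other genes listed under mitochondrial oxidation and tested, 12 fell and 3 rose (median -0.57). The list was broad, and not every gene in it encodes a mitochondrial enzyme of oxidation. Acacb, the acetyl-CoA carboxylase whose malonyl-CoA restrains carnitine palmitoyltransferase at the mitochondrion, fell (-2.71 ± 0.37, adjusted p = 4.21e-06), and Acaca, the carboxylase of fatty acid synthesis, rose (1.02 ± 0.30, adjusted p = 0.00813). The carriers Slc25a29 and Slc25a42 fell (-1.88 and -1.38), and Cpt1c and Acot9 rose (1.01 and 0.42). Of 29 other genes listed as peroxisomal and tested, 13 fell and 3 rose (median -0.39). Where the protein of each of them acts, that of Abcd4 among them, was not checked. The largest falls were Hao2, a hydroxyacid oxidase (-7.13 ± 0.83, adjusted p = 4.77e-07), Mpv17l (-3.10) and Nudt19, a CoA hydrolase (-2.54); Abcd4 (2.72), Baat, the bile acid conjugating enzyme (1.96), and Cat, catalase (1.12 ± 0.18, adjusted p = 2.33e-05) rose. The genes of peroxisome formation moved little: 3 of 19 fell (Pex10 -0.80, Pex3 -0.48 and Mff -0.36), 1 rose (Dnm1l, 0.37) and 15 did not pass.

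Uptake and activation genes showed no common direction, with 5 of 19 lower and 4 higher, near the 23.8% and 23.6% of all genes. Fabp3, the heart-type fatty acid binding protein, fell from 18.9 to 192 CPM in kidneys to 0.694 to 3.76 CPM in tumors (-5.16 ± 0.41, adjusted p = 1.52e-09), and Acsl6 and Slc27a1 fell (-1.96 and -1.90), whereas Acsf2, Fabp5 and Slc27a4 rose (1.49, 1.27 and 0.49). Of 9 ketone body genes, 2 fell and 3 rose: the monocarboxylate transporter Slc16a7 fell (-6.77 ± 0.60, adjusted p = 7.84e-09), as did the mitochondrial thiolase Acat1 (-1.29), and the transporters Slc16a1 and Slc16a6 rose (2.08 each), as did the cytosolic synthetase Aacs (0.88).

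Among 25 other regulators and receptors, 9 fell and 4 rose, against 23.8% and 23.6% of all genes. Pparg, the PPAR of fat storage, rose with fully separated groups, from 2.45 to 6.21 CPM to 16.5 to 31.4 CPM (2.57 ± 0.19, adjusted p = 6.54e-10), and Rxrg (1.36) and Ppard (0.62) rose. Esrrb, an estrogen-related receptor, fell from 20.0 to 81.1 CPM to 0 to 0.896 CPM (-8.34 ± 0.55, adjusted p = 1.25e-10), and Perm1 (-2.71) and Nr4a1 (-1.42) fell. Of 15 other PPAR-alpha target genes tested, 6 fell and 1 rose (median 0.03). The fatty acid omega-hydroxylases Cyp4a31, Cyp4a10 and Cyp4a14 fell most (-6.04, -4.08 and -3.65), and Me1, malic enzyme, rose with fully separated groups (1.05 ± 0.11, adjusted p = 1.31e-07). The counts of the Cyp4a genes are uncertain, since this family is known for closely related copies.

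The promoters of the members were searched for the direct repeat that PPAR-alpha binds with its partner, AGGTCANAGGTCA, on both strands with at most 2 mismatches outside N. RefSeq windows (GRCm38.p6) of 250 bases before to 50 after the start were matched for 37 members, which had 42 windows. A match was found in 4 of the 37 members, and in 3.86% of 32851 promoter windows in all. Members are counted as genes and the rest as windows, so the shares are not fully alike. With at most 1 mismatch no member window held one, against 0.554% of all windows, and with at most 3 mismatches 9 of 37 members did, against 24.6%. The 4 genes with at most 2 mismatches all fell, as did 27 of the 41 members tested. They are shown 5′ to 3′ in the direction of transcription with the match in capitals. The windows lie at chr9:55512194-55512493 (minus strand) for Etfa, chr9:108661886-108662185 (plus strand) for Slc25a20, chr7:140116372-140116671 (minus strand) for Echs1 and chr14:8258790-8259089 (minus strand) for Acox2.
Etfa: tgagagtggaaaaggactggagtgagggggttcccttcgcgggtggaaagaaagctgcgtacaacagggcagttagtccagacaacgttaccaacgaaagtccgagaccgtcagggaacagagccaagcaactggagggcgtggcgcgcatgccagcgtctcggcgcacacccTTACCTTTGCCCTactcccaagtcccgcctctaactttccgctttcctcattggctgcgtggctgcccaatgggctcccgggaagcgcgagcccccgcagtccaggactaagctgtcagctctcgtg
Slc25a20: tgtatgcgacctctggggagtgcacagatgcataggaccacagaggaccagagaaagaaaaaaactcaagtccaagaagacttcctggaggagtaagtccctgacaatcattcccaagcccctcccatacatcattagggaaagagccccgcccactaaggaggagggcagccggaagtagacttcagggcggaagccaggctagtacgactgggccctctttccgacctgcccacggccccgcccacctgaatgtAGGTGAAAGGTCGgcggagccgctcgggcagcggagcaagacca
Echs1: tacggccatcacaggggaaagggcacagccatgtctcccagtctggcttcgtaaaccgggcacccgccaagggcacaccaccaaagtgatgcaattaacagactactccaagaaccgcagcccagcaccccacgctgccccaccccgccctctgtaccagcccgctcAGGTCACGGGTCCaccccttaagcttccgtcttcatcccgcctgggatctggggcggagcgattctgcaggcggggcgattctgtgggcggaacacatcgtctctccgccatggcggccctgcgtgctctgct
Acox2: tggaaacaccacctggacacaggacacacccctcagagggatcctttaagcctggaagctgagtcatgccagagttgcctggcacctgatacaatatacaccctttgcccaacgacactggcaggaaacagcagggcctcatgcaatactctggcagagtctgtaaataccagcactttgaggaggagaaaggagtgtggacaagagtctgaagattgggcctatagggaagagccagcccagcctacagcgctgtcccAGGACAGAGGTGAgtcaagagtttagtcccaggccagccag
The matches begin 77 bases before the start in Etfa, on the opposite strand, and 83 bases before it in Echs1, and at bases 7 and 10 after it in Slc25a20 and Acox2. The windows of Ehhadh and Acaa1b held no such match, which says only that these letters are not there. The letters TCAAGGTCA, an element bound by estrogen-related receptors, occurred in no member window and in 0.423% of all windows.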

How the data were processed

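RNA of 10 tumors and 10 normal kidneys was measured as poly-A libraries, read as pairs on an Illumina instrument after flash freezing, pulverizing and Trizol extraction. The sequencing company counted the reads per gene, and the authors deposited these raw counts without normalization. The labels name the build mm10. The aligner, the counter, the use of strand and the treatment of reads that match several genes are not given in the sources used here, so counts of overlapping and near-identical genes are uncertain. Their own analysis, made on NIDAP, was not used. Groups and numbers were taken from the sample titles. The 20 samples came from 10 mice by the study's methods, but which tumor and kidney shared a mouse is not given. P-values measure the spread between these samples. Within groups, 90 library pairs were compared by chi-square over genes, and none agreed within sampling noise (at least 14.0 per degree of freedom).

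The members, the other gene lists and the tests were chosen with earlier results of these data known. The groups were compared in edgeR 4.0.16 (R 4.3.3): filter with a count minimum of 10, TMM factors, quasi-likelihood test without covariate over 20 libraries, and Benjamini-Hochberg adjustment over 15354 genes. The factors lay between 0.749 and 1.14. Values of libraries are CPM, or log2 CPM with a prior count of 2. Members were also counted at a log2 fold change past 1 with a raw p under 0.001. Ratios of related genes used a prior of 0.5 counts and 100000 resamples, seed 20240. Alternatives were DESeq2 1.42.0, limma 3.58.1 (voom with quality weights), other scaling, no filter, a replicate block and leaving out each library. After the data were seen, fits without normal kidneys 5, 7 and 8, without normal kidney 9 and tumor 7, and with a term for Ddx3y over Xist counts were added. The test was tried on simulated counts with known changes. There edgeR called 62% of the 2-fold changes, and 5.4% of its calls were false. DESeq2 called 75% of them, with 16.6% of its calls false, and limma-voom 62%, with 6.2% false. A gene that did not pass may therefore still differ. All members were named, and of each further pathway list at most the 3 largest falls and rises among the genes past the threshold. Promoters are from RefSeq (GRCm38.p6) and transcripts from GENCODE M21. No protein sequences were used here. The values of 1 gene of the ketone body list are not reported here.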

Additional observations from a re-analysis of the deposited data

Results flagged for a closer look

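For the 41 members tested, the highest and lowest library of each group was compared with its nearest neighbour, and 15 of 82 groups had a library set apart by more than chance gives in about 1 in 20 groups of this size. The 82 groups share the same 20 libraries, so they are not separate trials. The same share over all genes was not computed. Over all genes tested, tumor 7 was the lowest tumor for 30.0% and normal kidney 9 the highest kidney for 30.2%. Tumor 7 was the low library in 8 of the 15 groups. It had 7.73 log2 CPM of Acadm, 5.63 of Acad11, 6.35 of Acaa1a, 3.46 of Acox2, 5.99 of Acox3, 7.58 of Scp2, 3.23 of Ppargc1a and 3.87 of Pecr, and for Ppargc1a the next tumor stood at 5.28 log2 CPM. Tumor 5 was the high tumor for Etfb, at 4.59 log2 CPM, and Abcd3, at 8.50. Normal kidney 9 was the high kidney in the other 5, with 8.94 log2 CPM of Echs1, 8.88 of Cpt2, 9.29 of Etfa, 6.66 of Etfb and 10.74 of Ech1. Without normal kidney 9 and tumor 7 together, 28 members fell, 2 rose (Crat and Acox3), and the signs of Acadm and Cpt2, neither of which passed, turned. In that fit 4606 of 15353 genes fell and 4062 rose.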

How the results depend on the processing

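Over all alternatives 23 to 33 members were lower in tumors, 12 to 19 of them mitochondrial and 7 to 12 peroxisomal, and 10 to 16 were lower by the fold and p limits, each within 1.5 times the reported count, and none was higher by those limits. With 1 library left out at a time the counts were 25 to 33, 14 to 17, 7 to 10 and 11 to 14, and the medians lay between -0.82 and -0.61 for mitochondrial and between -1.08 and -0.93 for peroxisomal members. The number that rose was 1 to 2 when a library was left out (2 without normal kidney 1, 6, 9 or 10 or tumor 7 or 9), 3 by limma-voom with quality weights, and 2 without normal kidney 9 and tumor 7 together. Normal kidneys 5, 7 and 8 were left out together for the lowest count of falls, 23. The count over all genes moved as well. It is not given here for the fits with 1 library left out, nor by the fold and p limits outside the reported fit. Those member counts can therefore not be set against it. Of 15354 genes, 3661 fell in the reported fit, 4218 by DESeq2, 4554 with library totals, 4650 with upper quartile factors and 5407 by limma-voom. Without normal kidneys 5, 7 and 8, 4038 of 15834 genes fell.

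Of single members, the log2 fold change of Acadm turned to 0.011 without normal kidney 9 and tumor 7, that of Cpt2 to 0.028 by limma-voom and to 0.020 without those libraries, and that of Hsd17b4 to -0.011 with library totals; none of these passed. By limma-voom the log2 fold changes of Acadl, Slc25a20, Ech1 and Acsm3 were -0.29, -0.42, -0.69 and -3.50, all still lower, and that of Acsm3 was -3.83 with a replicate block. Among the ratios, the call of Cpt1a:Cpt1b was lost with a prior of 2 counts (0.71). The cause was not tested.

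The labels give both groups the numbers 1 to 10. Deviations from the group means of same-numbered libraries correlated at 0.19 or more in 9 of 10 pairs and at -0.14 in pair 9, and 8 of 10 tumors correlated best with the kidney of their own number, as a hint from the data; the same numbers had more Ddx3y than Xist in both tissues. With a replicate block 30 members were lower and 2 higher, and 3886 of 15354 genes were lower and 3979 higher. Crot, Ppargc1a, Hadha and Eci2 were called lower and Acox3 higher, and the call of Eci3 was lost. In that fit the medians were -0.68 and -0.86, and the ratios, tested by exact sign flips within numbers, changed no call.

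The counting rule for reads shared by several genes limits Acaa1a, Acaa1b, Hadhb, Scp2, Etfb and Cpt1b.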
